A study of Mus musculus with 13 samples.

Results

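The comparison described here set tumours from double transgenic mice, which carried both MYCN and mutated ALK as transgenes, against normal adrenal gland. The 6 arrays were chosen by their genotype labels alone: 3 labelled as carrying MYCN and mutated ALK, and 3 labelled normal, out of 13 arrays in the series. The other 7 arrays came from tumours with MYCN alone (4 arrays) or mutated ALK alone (3 arrays, labelled mutALK). All mice were C57BL/6 by their labels, transgene expression was specific to the neural crest, and tumours were taken once they could be felt. The labels name neither the promoter nor the species of the transgenes, nor the ages of the mice, and they do not say whether each array holds another animal, so p-values measure the spread between these arrays, which may in part be technical. Total RNA was hybridised to mouse Affymetrix arrays, and 18194 genes were compared. Scan dates are not given, so a batch that followed the groups cannot be told apart from genotype or tissue.

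Neuroblastoma is a childhood tumour of the sympathetic nervous system that often arises in the adrenal gland, from neural crest cells on their way to becoming sympathetic neurons or chromaffin cells. MYCN, a transcription factor of the MYC family, and ALK, a receptor tyrosine kinase that signals through the MAPK and PI3K pathways, are both recurrently altered in it. The normal adrenal gland is mostly steroid-making cortex around a small medulla of chromaffin cells, which make catecholamines. The comparison therefore sets a tumour of one lineage against an organ made mainly of another.

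All levels are log2 values from robust multi-array averaging (RMA), so 1 unit is a 2-fold difference, and the 3 values of a group are given in the order array 1 to array 3. A difference is the double transgenic mean minus the adrenal mean ± its standard error (SE) from limma, fitted over all 13 arrays. Each gene is read on its brightest probe set, and sizes can differ on its other probe sets. A gene is called when its Benjamini-Hochberg adjusted p, taken over all genes, is under 0.05. On this rule 8835 genes were called, 48.6% of all: 4428 genes were higher in the double transgenic tumours, 24.3% of all genes, and 4407 were lower, 24.2%, with a median difference over all genes of -0.03. Of these, 2507 were higher and 2602 lower by at least 2-fold. These shares are the background against which each group of genes is read.

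Double transgenic 1 and adrenal 2 stood apart before any comparison. A list of 22 measured liver genes averaged 11.68, 4.38 and 5.66 in the double transgenic arrays and 5.51, 10.66 and 5.4 in the adrenal arrays, and 0 of the 22 were called between the groups. Double transgenic 1 lay at least 2 log2 units above both other tumours of its group for 304 genes, and adrenal 2 lay as far above both other adrenals for 474. Among the single-driver tumours used further on, the same list averaged 10.23 and 8.94 in mutALK 1 and 3 and 8.57 in MYCN 2, against 4.55 to 5.29 in the other 4 arrays. Double transgenic 1 also held skeletal muscle and some cortex transcripts. Adrenal 2 also held transcripts of neurons, fat, Schwann cells and exocrine pancreas. Without double transgenic 1 and adrenal 2, 4199 genes (23.1%) were higher and 4310 (23.7%) lower, of which 3865 and 3875 were the same calls, and 0 genes were called in the opposite direction. From Xist and Y-linked genes, all 3 adrenal arrays and double transgenic 1 read as female and double transgenic 2 and 3 as male. With sex as a covariate 3874 genes were higher and 3641 lower.

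**Figure D1:**
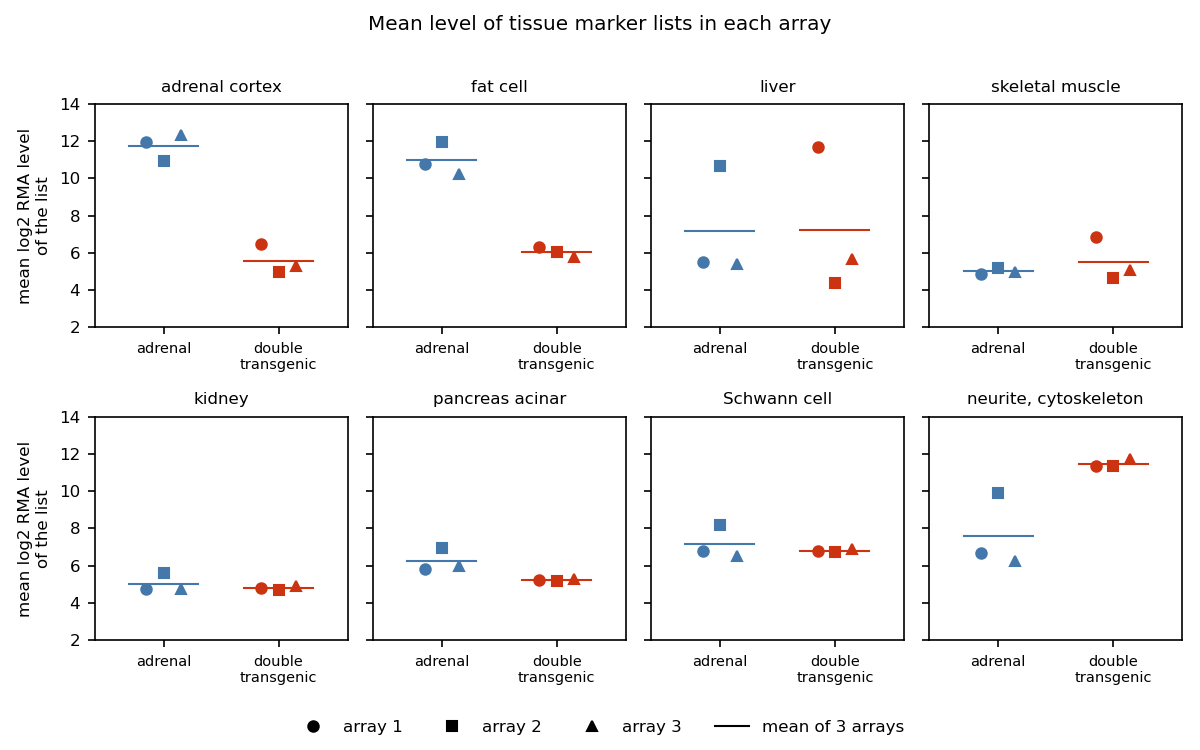
Mean log2 RMA level of 8 tissue marker lists in each array, adrenal in blue and double transgenic in red; symbols are arrays 1 to 3 and lines are group means. Adrenal 2 and double transgenic 1 are high for liver, adrenal 2 is between the groups for neurite genes, and cortex and fat lists are lower in all 3 double transgenic arrays.

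The targeted genes were examined first. The brightest Mycn probe set read 9.77, 9.86 and 10.93 in the double transgenic arrays against 8.7, 7.43 and 6.92 in the adrenal arrays. All 3 tumours lay above all 3 adrenals, with a difference of 2.5 ± 0.55 (adjusted p = 0.00249). A second Mycn probe set rose by 0.83 ± 0.17 (adjusted p = 0.0014), and another differed by -0.22 ± 0.12 (adjusted p = 0.16), so the probe sets of the gene did not give a common answer. The mouse Mycn level was 6.35 ± 0.86 (SD, n = 4) in MYCN tumours and 12.03 ± 0.33 (SD, n = 3) in mutALK tumours. Double transgenic tumours were higher than the former by 3.84 ± 0.51 (adjusted p = 0.00141) and differed from the latter by -1.85 ± 0.55 (adjusted p = 0.0446), a call lost without the 5 arrays high in liver genes (-1.51, adjusted p = 0.265). Whether these mouse probe sets detect the transgene is not stated in the labels and was not tested.

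Alk levels were 8.74, 9.13 and 9.47 in the double transgenic arrays against 5.08, 5.5 and 4.92 in the adrenal arrays. The groups were well apart, and the difference was 3.95 ± 0.25, a 15.4-fold rise (adjusted p = 5.61e-07). Alk was also high in both single-driver groups, and the double transgenic tumours differed from MYCN tumours by -0.33 ± 0.24 (adjusted p = 0.423) and from mutALK tumours by 0.33 ± 0.25 (adjusted p = 0.449), neither of which was called. Of the other measured members of the ALK ligand group, Mdk, which encodes the growth factor midkine, rose by 3.04 ± 0.33 (adjusted p = 1.49e-05), with 9.58, 8.85 and 8.55 in the double transgenic arrays against 5.91, 6.39 and 5.57 in the adrenal arrays. Its relative Ptn, pleiotrophin, fell by 1.77 (adjusted p = 0.0025). Fam150a and Fam150b, also in this group, were not measured. The pleiotrophin receptor phosphatase gene Ptprz1 differed by -1.18 ± 0.36 (adjusted p = 0.0185), a call that was lost without adrenal 2 (-0.94, adjusted p = 0.0698) or without double transgenic 1 (-1.08, adjusted p = 0.0574).

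Genes of the sympathetic neuron programme were raised. Of 15 measured sympathoadrenal transcription factors, 13 rose and 0 fell, with a median difference of 2.29 against -0.03 over all genes. Sox11, an HMG-box factor of immature neurons, read 11.1, 11.21 and 11.12 in the double transgenic arrays against 4.98, 5.32 and 4.73 in the adrenal arrays. The tumours were tightly grouped and more than 5 log2 units above the highest adrenal, and the difference was 6.13 ± 0.19 (adjusted p = 9.07e-09). Isl1, a LIM homeodomain factor of sympathetic neuroblasts, read 12.98, 13.23 and 13.21 in the double transgenic arrays against 8.2, 10.24 and 6.62 in the adrenal arrays, a rise of 4.79 ± 0.64 (adjusted p = 7.73e-05). Here adrenal 2 was the highest adrenal, yet still below every tumour. Tfap2b rose by 4.78 ± 0.50 and Prrxl1, a homeobox factor of sensory neurons, by 4.58 ± 0.42.

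The other risers of this group were Eya1 (4.48), Insm1 (4.47), Gata3 (2.98), Gata2 (2.29), Sox4 (2.14), Satb1 (2.12), Hand2 (2.000), Tbx2 (1.98) and Tlx2 (1.19, and 0.71 without adrenal 3), all on the log2 difference scale. Hand1 did not pass the test: its levels were 7.51, 6.68 and 6.68 in the double transgenic arrays against 6.56, 7.56 and 6.64 in the adrenal arrays, which overlapped, and the difference was 0.04 ± 0.35 (adjusted p = 0.94). Phox2a, a homeobox factor that drives noradrenergic fate, differed by 1.3 ± 0.65 (adjusted p = 0.122), and by 2.03 (adjusted p = 0.0106) without adrenal 2. Without double transgenic 1 and adrenal 2, 14 of the 15 were called higher.

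Cytoskeletal genes of growing neurites rose with them. Of 19 measured members, 16 were higher and 0 lower, with a median of 3.87. Dcx, which encodes the microtubule-binding protein doublecortin of migrating neurons, had the largest rise among the genes named by rule. Its levels were 10.94, 11.07 and 11.32 in the double transgenic arrays against 3.79, 4.49 and 3.68 in the adrenal arrays. No adrenal array, adrenal 2 included, came within 6 log2 units of a tumour, and the difference was 7.12 ± 0.28, or 139-fold (adjusted p = 5.88e-08). That size belongs to the brightest probe set, and the mean of the Dcx probe sets rose by 3.65 (adjusted p = 4.58e-07).

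The neurofilament genes showed another pattern in the control group. Nefm levels were 13.38, 13.53 and 13.43 in the double transgenic arrays against 6.2, 11.11 and 5.62 in the adrenal arrays, and Nefl levels 13.37, 13.5 and 13.5 in the double transgenic arrays against 5.92, 11.83 and 5.67 in the adrenal arrays. Adrenals 1 and 3 were low for both, while adrenal 2 was within 3 log2 units of the tumours. The differences were 5.8 ± 1.05 (adjusted p = 0.000663) for Nefm and 5.65 ± 1.21 (adjusted p = 0.0022) for Nefl, and 7.54 and 7.67 without adrenal 2. Gap43, a growth cone protein gene, showed the same order of arrays, with adrenals at 4.72, 10.71 and 3.76 and tumours at 12.16, 11.998 and 12.18, a difference of 5.71 ± 1.31 (adjusted p = 0.0034). Prph, which encodes the peripheral neuron filament peripherin, was the largest difference in the list without a call: 9.94, 10.6 and 12.05 in the double transgenic arrays against 5.36, 11.95 and 5.01 in the adrenal arrays, 3.43 ± 1.4 (adjusted p = 0.0635), becoming 5.68 (adjusted p = 3.54e-06) without adrenal 2. The neurite list averaged 6.66, 9.91 and 6.23 in the adrenal arrays, and which cells of adrenal 2 carried these transcripts was not tested.

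**Figure D2:**
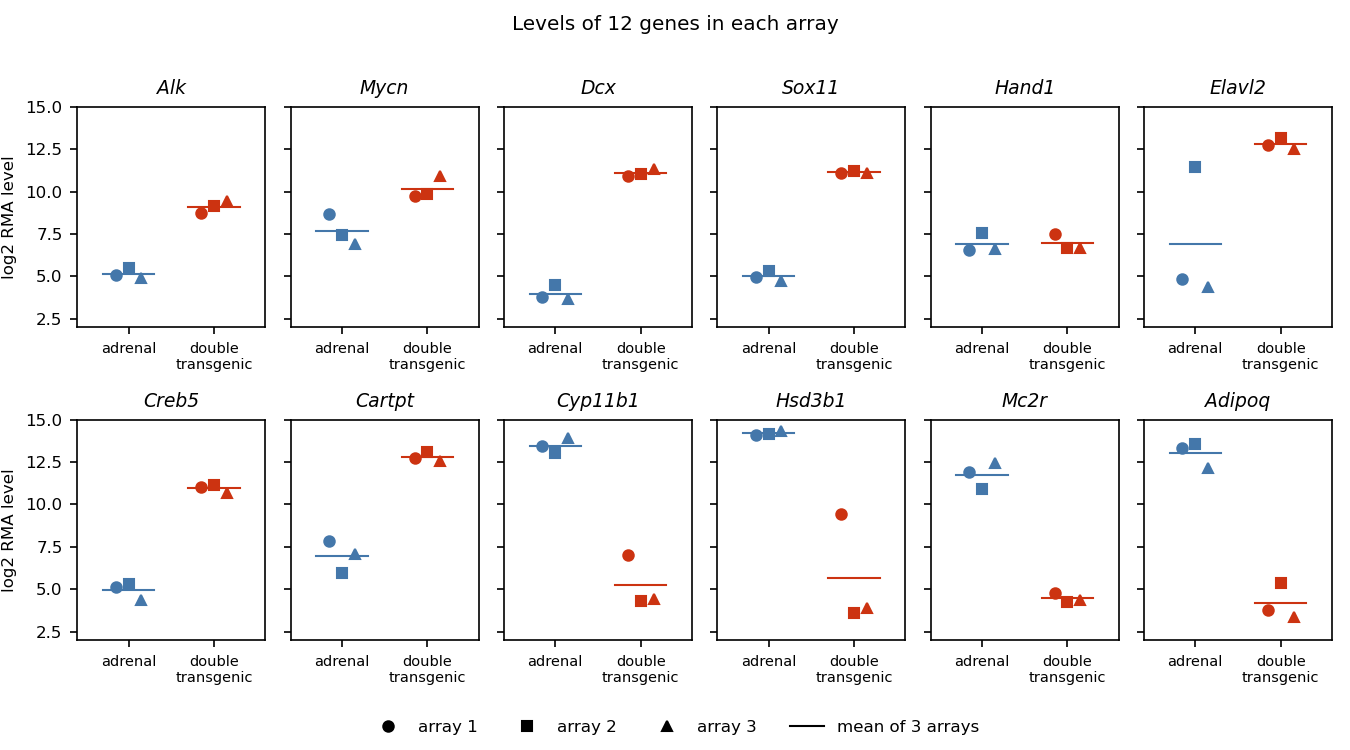
Log2 RMA levels of 12 genes in the 3 adrenal (blue) and 3 double transgenic (red) arrays; symbols are arrays 1 to 3 and lines are group means. Dcx, Sox11, Creb5 and Cartpt are high in all 3 tumours, Hand1 overlaps, Elavl2 is also high in adrenal 2, and the cortex genes Cyp11b1, Hsd3b1 and Mc2r and the fat gene Adipoq are low in the tumours.

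All 12 measured neuronal RNA-binding protein genes rose, with a median of 3.19. They include the neuronal Hu proteins, which bind AU-rich messages, and splicing regulators of the Nova, Rbfox and Celf families. Elavl2 (HuB) read 12.76, 13.17 and 12.5 in the double transgenic arrays against 4.86, 11.47 and 4.36 in the adrenal arrays. Its difference was 5.92 ± 1.38 (adjusted p = 0.00368), with a wide SE, as adrenal 2 read 11.47 beside 4.86 and 4.36, and it was 8.2 without that array. Celf5 rose by 5.51 ± 0.47, Elavl4 by 5.27 ± 0.76 and Rbfox1 by 4.64 ± 0.74. The smallest rise was that of Rbfox2, 0.99 ± 0.19 (adjusted p = 0.00115), a family member that is also broadly expressed outside neurons.

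Adhesion and excitability genes followed. Of 12 neural adhesion genes, 9 rose and 1 fell: Ncam1, the neural cell adhesion molecule, rose by 3.43 ± 0.53 and Cd24a by 3.13 ± 0.58, whereas Chl1 fell by 1.96 (adjusted p = 0.0075). The rise of L1cam, 2.57 ± 0.78, was no longer called without adrenal 1 (2.21, adjusted p = 0.0638) or adrenal 3 (1.77, adjusted p = 0.0682). Of 15 voltage-gated channel genes, 9 rose and 1, the potassium channel gene Kcna1, fell by 1.6 (adjusted p = 0.0406), a call lost without adrenal 2 (-0.84, adjusted p = 0.14) or any 1 tumour. The sodium channel gene Scn9a read 10.51, 10.73 and 10.38 in the double transgenic arrays against 4.79, 9.25 and 4.18 in the adrenal arrays, a rise of 4.47 ± 1.003 (adjusted p = 0.00293), with adrenal 2 again between the groups. Scn8a, in contrast, had adrenals at 4.97, 5.47 and 4.11 and tumours at 8.01, 9.13 and 8.97, a rise of 3.86 ± 0.34 (adjusted p = 3.48e-06).

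Synaptic release genes gave 10 rises and 0 falls among 16 members, with a median of 1.46. Cplx1, complexin 1, rose by 3.46 ± 0.73 (adjusted p = 0.0019). Snap25, a SNARE protein gene, read 12.65, 12.66 and 12.66 in the double transgenic arrays against 9.64, 11.85 and 8.32 in the adrenal arrays; the tumours differed from one another by less than 0.05, and the rise was 2.72 ± 0.63 (adjusted p = 0.00366). Only 5 of the 16 had all tumours above all adrenals, against 26.5% of all genes, and for 11 of the 16 adrenal 2 was not below every tumour. Without double transgenic 1 and adrenal 2, 15 of the 16 were called higher. Axon guidance genes were split, 10 higher and 4 lower of 20, against 24.3% and 24.2% of all genes. The netrin receptor gene Dcc rose by 4.58 ± 0.66 and the Robo ligand gene Slit2 by 3.09 ± 0.48, while Robo1 fell by 4.33 (adjusted p = 0.000349). Robo1 varied in the tumours, at 7.74, 7.03 and 4.84, against 11.16, 9.84 and 11.6 in the adrenals.

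Few genes that make and store catecholamines were called. Of 10 measured members, 2 rose and 1 fell, with a median of -0.02, and these shares are near or under the background of 24.3% and 24.2%. Adrenal 2 had the highest mean of the list among the adrenals, at 10.34, 11.05 and 9.36 in arrays 1 to 3, and without it and double transgenic 1 the list gave 3 rises and 1 fall with a median of 0.89. Th, the rate-limiting enzyme of catecholamine synthesis, read 12.39, 12.37 and 12.97 in the double transgenic arrays against 11.95, 11.63 and 10.85 in the adrenal arrays. The groups did not overlap, but the difference of 1.09 ± 0.59 was not called (adjusted p = 0.155) in the fit over 13 arrays, and was called in a fit of the 6 arrays alone (adjusted p = 0.0374). Dbh, which converts dopamine to noradrenaline, read 10.18, 10.64 and 11.91 in the double transgenic arrays against 11.27, 12.12 and 10.23 in the adrenal arrays, a difference of -0.29 ± 0.52 (adjusted p = 0.689). The vesicular monoamine transporter gene Slc18a2 rose by 3.06 ± 0.79 (adjusted p = 0.00682). Ddc, which makes dopamine, rose by 2.16 ± 0.59 (adjusted p = 0.00964), and by 1.42 without adrenal 3, but was not called in the fit of the 6 arrays alone (adjusted p = 0.0735). Pnmt, the adrenaline-making enzyme of chromaffin cells, fell: 7.68, 7.47 and 8.01 in the double transgenic arrays against 10.4, 8.7 and 9.55 in the adrenal arrays, a difference of -1.83 ± 0.33 (adjusted p = 0.00061).

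Chromaffin granule genes were split, 5 lower and 3 higher of 10, against 24.2% and 24.3% of all genes, with a median of 0.05. They gave 5 lower and 4 higher without double transgenic 1 and adrenal 2. Scg2, secretogranin II, read 9.56, 9.13 and 10.04 in the double transgenic arrays against 13.34, 11.74 and 12.25 in the adrenal arrays, a difference of -2.86 ± 0.48 (adjusted p = 0.000426), with each tumour below each adrenal. The granin genes Chgb (-2.09 ± 0.39) and Chga (-1.65 ± 0.47) and the prohormone convertase gene Pcsk1 (-2.45 ± 0.28) fell as well. Scg3 (2.64 ± 0.41), Vgf (2.34 ± 0.64) and Scg5 (1.22 ± 0.41) rose, the last not called without adrenal 3 (0.65, adjusted p = 0.0751) or double transgenic 3 (0.997, adjusted p = 0.1).

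Neuropeptide genes changed in both directions, 5 rising and 2 falling of 11, against 24.3% and 24.2% of all genes. With double transgenic 1 and adrenal 2 left out, 3 rose and 2 fell. Cartpt, the precursor of the CART peptide, read 12.76, 13.08 and 12.57 in the double transgenic arrays against 7.85, 5.94 and 7.09 in the adrenal arrays. All 3 tumours were at least 4 log2 units above every adrenal, and the difference was 5.84 ± 0.44 (adjusted p = 1.33e-06). Adcyap1, the precursor of PACAP, rose by 5.11 ± 0.86 (adjusted p = 0.000426). Vip read 10.69, 7.33 and 11.37 in the double transgenic arrays against 6.24, 5.03 and 4.86 in the adrenal arrays; double transgenic 2 was the low tumour, and the rise of 4.42 ± 1.25 (adjusted p = 0.0113) was not called without double transgenic 1 and adrenal 2 (3.8, adjusted p = 0.0816). The enkephalin precursor gene Penk fell by 3.31 (adjusted p = 5.49e-06) and Npy by 2.78 (adjusted p = 0.0026), both of them peptides of normal chromaffin cells. Among 10 cholinergic genes, 3 rose and 0 fell, against 24.3% and 24.2% of all genes. The nicotinic receptor subunit genes Chrnb2 (2.09 ± 0.32) and Chrna7 (1.48 ± 0.42) led the rises. Chat, the acetylcholine-synthesising enzyme gene, differed by only 0.36 ± 0.14 (adjusted p = 0.0453), and lost its call without any one of 5 arrays, adrenals 1 and 2 and all 3 tumours (adjusted p from 0.065 to 0.159).

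Neurotrophic factors and their receptors were also mixed, 4 higher and 2 lower of 12, against 24.3% and 24.2% of all genes. Gfra3, the artemin co-receptor, read 10.74, 10.84 and 10.54 in the double transgenic arrays against 6.57, 7.35 and 6.27 in the adrenal arrays, a rise of 3.98 ± 0.35 (adjusted p = 3.61e-06). Its signalling partner Ret read 10.39, 10.54 and 11.07 in the double transgenic arrays against 6.1, 10.69 and 5.14 in the adrenal arrays: adrenal 2 was as high as the tumours. The Ret difference was 3.36 ± 1.08 (adjusted p = 0.0226), 5.04 (adjusted p = 6.47e-06) without adrenal 2, and not called without adrenal 1 (2.75), adrenal 3 (2.27), double transgenic 2 (3.42) or double transgenic 3 (3.15). Ntrk2, the BDNF receptor gene, fell by 2.32 (adjusted p = 0.00115) on its brightest probe set, with -0.37 (adjusted p = 0.328) as the mean of its probe sets, while Bdnf itself rose by 2.04 ± 0.33 (adjusted p = 0.000319). Genes that report MAPK signalling gave 3 rises and 6 falls of 15, against 24.3% and 24.2% of all genes, with a median of -0.59. The ERK phosphatase gene Dusp6 fell by 2.3 (adjusted p = 0.00103) and Phlda1 by 3.07, whereas the ETS factor gene Etv5 rose by 1.03 ± 0.33 (adjusted p = 0.0229), a call lost without adrenal 2 (0.90, adjusted p = 0.073) or double transgenic 1 (0.84, adjusted p = 0.0865).

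Cell division genes rose almost without exception. Of 36 measured mitosis genes, 35 rose and 0 fell, with a median of 3.72, and for 35 of 36 all tumours lay above all adrenals, against 26.5% of all genes. Bub1, a spindle checkpoint kinase gene, read 10.6, 10.71 and 10.004 in the double transgenic arrays against 5.52, 4.66 and 5.99 in the adrenal arrays, a rise of 5.05 ± 0.32 (adjusted p = 5.61e-07). Ube2c, the ubiquitin-conjugating enzyme that starts the destruction of mitotic cyclins, read 12.58, 12.51 and 12.27 in the double transgenic arrays against 7.93, 6.62 and 8.08 in the adrenal arrays, a rise of 4.91 ± 0.31 (adjusted p = 5.61e-07). In both genes the tumours differed by less than 1 log2 unit from one another and lay more than 3 above the highest adrenal. The kinesin gene Kif2c and the kinase gene Melk each rose by 4.66, and the proliferation marker Mki67 by 4.18 ± 0.27. Kif15 was the member without a call, at 0.07 (adjusted p = 0.705).

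The promoters of these genes are shown because mitotic genes rose together and are known to share short elements, the cell cycle genes homology region (TTTGAA on either strand, so also TTCAAA) and CCAAT boxes (CCAAT, or ATTGG on the other strand). Sequences are from RefSeq, build GRCm38.p6, and a promoter is the stretch from 250 bases before to 50 after an annotated start. Of 36 measured members, 28 had an entry, with 30 promoters. TTTGAA was found in 22 of these 30, against 17.9% of all 32851 promoters of that length, CCAAT in 22 of 30 against 37.4%, and both in 19 of 30 against 6.95%. A match is a description of letters, not a shown binding site. The 160 bases before the start of 4 members with both motifs follow, 5′ to 3′ in the direction of the gene, with the motifs in capitals: Ube2c (chr2:164769769-164769928, plus strand), Top2a (chr11:99024190-99024349, minus strand), Cdk1 (chr10:69352913-69353072, minus strand) and Cdc20 (chr4:118437344-118437503, minus strand).
Ube2c: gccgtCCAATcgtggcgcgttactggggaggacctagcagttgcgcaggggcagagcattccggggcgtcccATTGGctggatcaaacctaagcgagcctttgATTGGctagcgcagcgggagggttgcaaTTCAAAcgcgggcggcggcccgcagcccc
Top2a: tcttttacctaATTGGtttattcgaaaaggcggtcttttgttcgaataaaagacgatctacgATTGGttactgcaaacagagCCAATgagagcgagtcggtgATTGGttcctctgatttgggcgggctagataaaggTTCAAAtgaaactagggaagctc
Cdk1: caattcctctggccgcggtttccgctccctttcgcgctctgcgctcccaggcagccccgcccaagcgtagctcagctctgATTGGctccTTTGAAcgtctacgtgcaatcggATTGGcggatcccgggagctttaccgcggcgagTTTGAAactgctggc
Cdc20: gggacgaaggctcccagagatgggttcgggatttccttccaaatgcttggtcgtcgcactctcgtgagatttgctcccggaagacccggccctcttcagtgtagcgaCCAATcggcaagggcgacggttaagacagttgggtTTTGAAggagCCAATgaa
In the arrays Top2a, which encodes the topoisomerase that untangles replicated chromosomes, rose by 4.35 ± 0.28, Cdk1, the mitotic kinase gene, by 4.02 ± 0.29, and Cdc20, an activator of the anaphase-promoting complex, by 3.47 ± 0.28.

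DNA replication genes gave 30 rises and 0 falls of 31, with a median of 2.21. Cdc6, which loads the replicative helicase, read 8.93, 8.55 and 8.07 in the double transgenic arrays against 4.997, 4.45 and 4.73 in the adrenal arrays, a rise of 3.79 ± 0.28 (adjusted p = 1.23e-06). Dbf4, the regulatory subunit of the CDC7 kinase, rose by 3.75 ± 0.26, the primase gene Prim1 by 3.7 ± 0.24 and the licensing factor gene Cdt1 by 3.59 ± 0.30. All 19 DNA repair and checkpoint genes rose (median 2.62), among them Rad54b (4.39 ± 0.34), Rad51ap1 (4.36 ± 0.36), Exo1 (4.33 ± 0.33) and Clspn (4.19 ± 0.33). One of them, Chek2, was not called without adrenal 1 (0.47, adjusted p = 0.117), double transgenic 1 (0.57) or double transgenic 2 (0.54).

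Regulators of the G1 phase split by family member, 11 higher and 5 lower of 19, against 24.3% and 24.2% of all genes. The D-type cyclin genes diverged. Ccnd1 rose by 2.23 ± 0.11 (adjusted p = 1.61e-07), while Ccnd2, at 7.25, 6.83 and 7.21 in the double transgenic arrays against 12.32, 11.3 and 12.26 in the adrenal arrays, fell by 4.87 (adjusted p = 1.76e-05), and Ccnd3 fell by 3.56. The E-type cyclin gene Ccne2 rose by 3.46 ± 0.35. Cdkn1c, a CDK inhibitor gene, fell by 3.67 (adjusted p = 0.000871). Chromatin genes of the polycomb and DNA methylation group gave 10 rises and 2 falls of 15. Uhrf1, which recruits the maintenance methyltransferase to replicating DNA, read 11.07, 10.999 and 10.9 in the double transgenic arrays against 6.59, 6.3 and 6.8 in the adrenal arrays, a rise of 4.43 ± 0.27 (adjusted p = 4.75e-07). Tet1, a methylcytosine dioxygenase gene, rose by 4.08 ± 0.21 and Ezh2, the polycomb methyltransferase gene, by 3.07 ± 0.29, while its relative Ezh1 fell by 1.92.

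**Figure D3:**
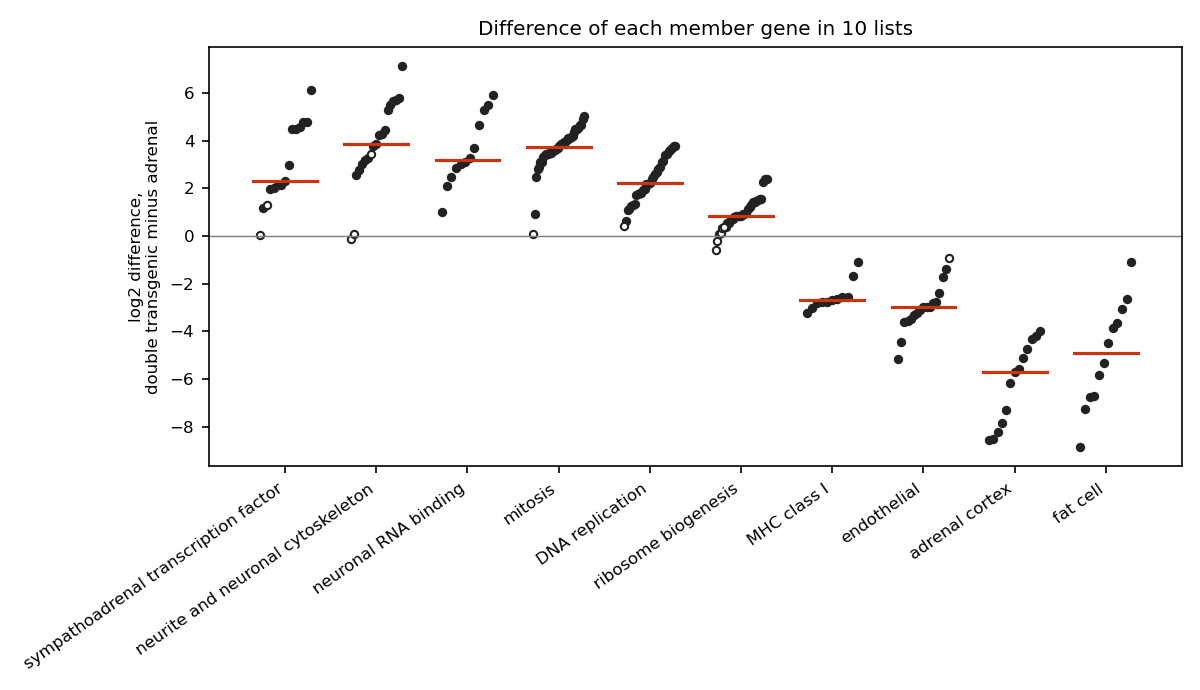
Log2 difference, double transgenic minus adrenal, of each measured gene in 10 lists; filled points have adjusted p under 0.05, open points do not, and red lines are list medians. Mitosis genes lie mostly between 2 and 5, ribosome biogenesis genes mostly between 0 and 3, and all cortex, fat and MHC class I genes lie below 0.

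Within the MYC family the members moved apart. Besides Mycn, Mycl rose: 8.56, 7.92 and 7.66 in the double transgenic arrays against 4.8, 5.31 and 4.88 in the adrenal arrays, a difference of 3.05 ± 0.31 (adjusted p = 9.89e-06). Myc fell, from 9.86, 8.22 and 9.72 in the adrenals to 6.31, 5.81 and 6.28 in the tumours, by 3.13 (adjusted p = 0.000111), and the groups did not overlap for either gene. Of the 13 members of the wider MYC and MAX network, 9 rose and 3 fell, against 24.3% and 24.2% of all genes. They include the MAX partner genes Mxd3 (2.06 ± 0.36) and Mga (1.71 ± 0.19) upward and Mxd4 (-1.48 ± 0.19) downward.

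Ribosome biogenesis genes, many of which MYC proteins are known to activate, gave 25 rises and 0 falls of 31, with a median of 0.86, a smaller size than that of the cell division genes. Nolc1, a nucleolar chaperone gene, read 10.54, 10.34 and 10.56 in the double transgenic arrays against 8.25, 7.84 and 8.22 in the adrenal arrays, a rise of 2.38 ± 0.19 (adjusted p = 1.79e-06). Rrp1b rose by 2.38 ± 0.19 and the box C/D ribonucleoprotein gene Nop56 by 2.27 ± 0.18. Without double transgenic 1 and adrenal 2, 21 were higher and 1, the RNA polymerase I subunit gene Polr1a, was lower (-0.91, adjusted p = 0.00516). The E-box CACGTG, the same letters on both strands and the site MYC proteins are known to bind, was found in 5 of 33 promoters of 25 members with an entry, against 7.15% of all promoters. One member that carries it, Nop2, rose by 0.86 ± 0.16 (adjusted p = 0.000819); the 160 bases before its start (chr6:125131723-125131882, plus strand) are given with the E-box in capitals.
Nop2: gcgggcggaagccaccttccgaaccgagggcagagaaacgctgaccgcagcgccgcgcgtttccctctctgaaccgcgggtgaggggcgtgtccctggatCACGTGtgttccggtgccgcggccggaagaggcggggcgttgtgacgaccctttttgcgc
Enzymes of nucleotide and one-carbon metabolism gave 13 rises and 3 falls of 22. The ribonucleotide reductase genes Rrm2 (3.71 ± 0.37) and Rrm1 (2.55 ± 0.19) and the thymidylate synthase gene Tyms (2.35 ± 0.31) led the rises. Odc1, the ornithine decarboxylase gene and a textbook MYC target, read 11.69, 11.52 and 11.29 in the double transgenic arrays against 11.46, 10.46 and 11.68 in the adrenal arrays, a difference of 0.30 ± 0.31 (adjusted p = 0.469). Of 9 oncofetal genes, 1 rose (Lin28b, 1.1 ± 0.30) and 2 fell (Hmga2, -1.16 ± 0.23, and Igf2, -0.95 ± 0.26), against 24.3% and 24.2% of all genes. The Igf2 call was lost without double transgenic 1 and adrenal 2 (-0.76, adjusted p = 0.0608).

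Regulators of cell death gave 5 higher and 5 lower of 17, near the shares of all genes (24.3% and 24.2%). Casp8, the initiator caspase of death receptors, read 6.92, 6.16 and 6.29 in the double transgenic arrays against 9.01, 8.52 and 9.12 in the adrenal arrays, a difference of -2.43 ± 0.26 (adjusted p = 1.53e-05). The genes of the pro-death BH3 proteins Bbc3 (1.58 ± 0.28) and Bid (1.42 ± 0.15) rose, as did Mdm4 (1.43 ± 0.23), an inhibitor of p53, and Bcl2 (1.15 ± 0.33). Mcl1 (-0.22 ± 0.24) and Bcl2l1 (-0.01 ± 0.14), which encode survival proteins, had no call.

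On the other side of the comparison, steroid-making genes were low in every tumour. All 13 measured adrenal cortex genes fell, with a median of -5.7, and for all 13 each tumour lay below each adrenal, against 26.7% of all genes. Their high adrenal levels bear out the labelled tissue. AAGGTCA, searched on both strands and known from sites of the steroidogenic nuclear receptor SF-1, was found in 0 of 6 promoters of the 5 members with an entry, against 4.72% of all promoters. Cyp11a1, which starts steroid synthesis from cholesterol, read 6.27, 3.71 and 4.28 in the double transgenic arrays against 13.64, 12.5 and 13.7 in the adrenal arrays, a difference of -8.53 ± 0.53 (adjusted p = 5.11e-07). Hsd3b1 read 9.43, 3.59 and 3.9 in the double transgenic arrays against 14.12, 14.15 and 14.33 in the adrenal arrays, and Cyp11b1, which makes corticosterone, 7.01, 4.31 and 4.43 in the double transgenic arrays against 13.44, 13.02 and 13.93 in the adrenal arrays. In both genes double transgenic 1 was the highest tumour, by more than 5 log2 units for Hsd3b1, and still below the adrenals. The differences were -8.56 ± 1.14 (adjusted p = 7.12e-05) and -8.21 ± 0.56 (adjusted p = 7.4e-07). Mc2r, the ACTH receptor gene, had tumours at 4.78, 4.24 and 4.34 and adrenals at 11.89, 10.89 and 12.47, a difference of -7.3 ± 0.38, and its accessory protein gene Mrap fell by 7.84. As the mean of their probe sets, Cyp11a1 differed by -3.9 and Mrap by -4.075, while Hsd3b1, Cyp11b1 and Mc2r were unchanged. In bulk tissue, fewer cells of a type and less RNA per cell cannot be told apart, here and in each cell type described.

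Others among the 12 largest falls were the aldo-keto reductase genes Akr1cl (-7.64 ± 0.52), Akr1c18 (-7.04 ± 0.65) and Akr1d1 (-7.19 ± 0.68), the oxidase gene Hao2 (-7.62 ± 0.92) and the drug transporter gene Abcb1b (-7.2 ± 0.67). Aldo-keto reductases are close relatives, and how far their probe sets share targets was not tested. Genes of the capsule and its progenitor cells gave 1 rise and 7 falls of 12, and 0 rises and 6 falls without double transgenic 1 and adrenal 2. Shh, the morphogen of subcapsular progenitors, read 4.41, 4.15 and 4.48 in the double transgenic arrays against 9.32, 9.13 and 9.31 in the adrenal arrays, a difference of -4.91 ± 0.15 (adjusted p = 9.07e-09). Rspo3 (-4.94 ± 0.33) and Wnt4 (-4.71 ± 0.24), which drive zonation, and Pdgfra (-4.7 ± 0.50) fell as well, and Dlk1 (2.13 ± 0.53) rose, a call lost without double transgenic 1 and adrenal 2 (1.43, adjusted p = 0.0632). Cholesterol synthesis genes gave 10 falls and 1 rise of 16, led by Dhcr7 (-2.33 ± 0.32) and the sterol sensor gene Insig1 (-1.89 ± 0.37). They gave 8 falls and 0 rises without double transgenic 1 and adrenal 2.

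Fat cell genes were the most lowered list beside the cortex: 12 of 12 fell, with a median of -4.92. Adipoq, the adiponectin gene, read 3.75, 5.36 and 3.38 in the double transgenic arrays against 13.33, 13.59 and 12.17 in the adrenal arrays, and its difference of -8.86 ± 1.63 (adjusted p = 0.000766) was the largest fall named by rule. Fabp4 fell by 7.26, and Ucp1, the uncoupling protein gene of brown fat, read 5.003, 4.63 and 5.17 in the double transgenic arrays against 9.37, 13.55 and 11.998 in the adrenal arrays, a difference of -6.71 ± 1.01 (adjusted p = 0.000185). Adrenal 2 was the highest adrenal for each of the 3. The list averaged 10.8, 11.94 and 10.25 in the adrenal arrays. The part of attached fat in these control arrays was not tested.

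Genes of the immediate early response, which are induced by stimulation and by handling of tissue, gave 12 falls and 0 rises of 18. Nr4a1, an orphan nuclear receptor gene, read 8.56, 8.13 and 8.67 in the double transgenic arrays against 12.76, 12.76 and 13.26 in the adrenal arrays, a difference of -4.47 ± 0.25 (adjusted p = 3.28e-07). Nr4a3 (-3.95 ± 0.25), Klf4 (-3.84 ± 0.35) and Junb (-3.6 ± 0.31) fell too. Fos had no call, at 8.76, 7.95 and 9.71 in the double transgenic arrays against 11.39, 9.76 and 9.08 in the adrenal arrays and -1.27 ± 0.72 (adjusted p = 0.17).

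Vascular and stromal genes were lower in the tumours. Of 17 endothelial genes, 16 fell and 0 rose, with a median of -2.99. Emcn, endomucin, read 5.35, 4.57 and 4.93 in the double transgenic arrays against 10.43, 9.38 and 10.53 in the adrenal arrays, a difference of -5.17 ± 0.58 (adjusted p = 2.12e-05). Tek, the angiopoietin receptor gene, fell by 4.45, Kdr, the VEGF receptor gene, by 3.6, and Plvap, of fenestrated capillaries, by 3.56. Vwf was not called, at -0.93 ± 0.52 (adjusted p = 0.166), and was called without adrenal 3 (-1.45, adjusted p = 0.0318). Fibroblast and matrix genes gave 11 falls and 1 rise of 15 (median -2.62): Col6a1 fell by 4.2 (adjusted p = 6.23e-06) and Sparc by 3.38, while Fbln1 rose by 2.79 ± 0.21 (adjusted p = 1.55e-06). Regulators of mesenchymal and neural crest states gave 10 falls and 0 rises of 15, and 8 falls and 0 rises without double transgenic 1 and adrenal 2. Fosl2 (-3.88 ± 0.40), Yap1 (-3.47 ± 0.27), Prrx1 (-3.39 ± 0.38) and Notch2 (-2.82 ± 0.38) fell most. Sox10, which marks neural crest and Schwann cells, had no call, at 7.08, 6.97 and 7.5 in the double transgenic arrays against 6.94, 8.43 and 6.81 in the adrenal arrays, -0.21 ± 0.41 (adjusted p = 0.714).

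Interferon-stimulated genes gave 14 falls and 1 rise of 17, with a median of -2.85. Xaf1 read 5.64, 5.19 and 5.56 in the double transgenic arrays against 10.4, 10.13 and 10.47 in the adrenal arrays, a difference of -4.87 ± 0.46 (adjusted p = 6.24e-06), and Ifit1, an antiviral RNA-binding protein gene, read 4.3, 4.07 and 4.52 in the double transgenic arrays against 8.42, 8.41 and 8.61 in the adrenal arrays, a difference of -4.19 ± 0.62 (adjusted p = 0.000158). For both, every tumour lay more than 3 log2 units below every adrenal. Ifit2 was the member that rose, by 0.78 ± 0.19 (adjusted p = 0.00436). All 11 genes of MHC class I presentation fell (median -2.67). Tap1, a peptide transporter subunit gene, read 5.73, 5.76 and 5.31 in the double transgenic arrays against 8.62, 8.39 and 8.87 in the adrenal arrays, a difference of -3.03 ± 0.50 (adjusted p = 0.000351), and B2m, the class I light chain gene, read 11.38, 10.58 and 10.15 in the double transgenic arrays against 13.3, 13.17 and 13.3 in the adrenal arrays, a difference of -2.55 ± 0.39 (adjusted p = 0.000218). Erap1, the peptide-trimming enzyme gene, fell by 3.22. The class I heavy chain genes are near-identical copies of one another, so H2-K1 (-2.64 ± 0.41) and H2-D1 (-2.58 ± 0.38) cannot be read separately.

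Macrophage, B cell and neutrophil markers had few calls beside the 24.3% of all genes higher and 24.2% lower. In the 6 arrays the T and NK cell, B cell and neutrophil lists averaged between 4.41 and 5.56. These levels lie under the array medians of 5.80 to 5.90, so a missing call says little there. Of 17 macrophage genes, 3 fell and 0 rose: Cd163 (-3.26 ± 0.66), Mrc1 (-1.64 ± 0.41) and Cd14 (-1.41 ± 0.47), the last not called without adrenal 1 (-1.3), adrenal 3 (-1.41) or double transgenic 2 (-1.1). With double transgenic 1 and adrenal 2 left out, 5 macrophage genes fell and 0 rose. The general macrophage genes Csf1r (-0.61 ± 0.33, adjusted p = 0.153) and Adgre1 (-0.43 ± 0.36, adjusted p = 0.362) had no call. Of 13 T and NK cell genes, 5 fell, and 1 was called lower without double transgenic 1 and adrenal 2. No B cell gene among 9 was called, and of 11 neutrophil genes 1 rose, Prtn3 (1.83 ± 0.19). Among 8 red cell genes 1 rose, the transferrin receptor gene Tfrc (2.95 ± 0.36), which dividing cells of other kinds also express. Cd5l, a secreted macrophage protein gene, was nonetheless among the 12 largest rises, at 11.28, 10.82 and 9.85 in the double transgenic arrays against 4.25, 5.57 and 4.76 in the adrenal arrays, a difference of 5.79 ± 0.45 (adjusted p = 1.61e-06). Schwann cell genes gave 1 rise and 3 falls of 11, against 24.3% and 24.2% of all genes. With double transgenic 1 and adrenal 2 left out they gave 1 rise and 1 fall, and the median moved from -0.28 to 0.03. Mbp, the riser in the main fit (1.2 ± 0.36), lost its call without adrenal 1 (1.08), adrenal 3 (0.90) or double transgenic 1 (1.02).

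**Figure D4:**
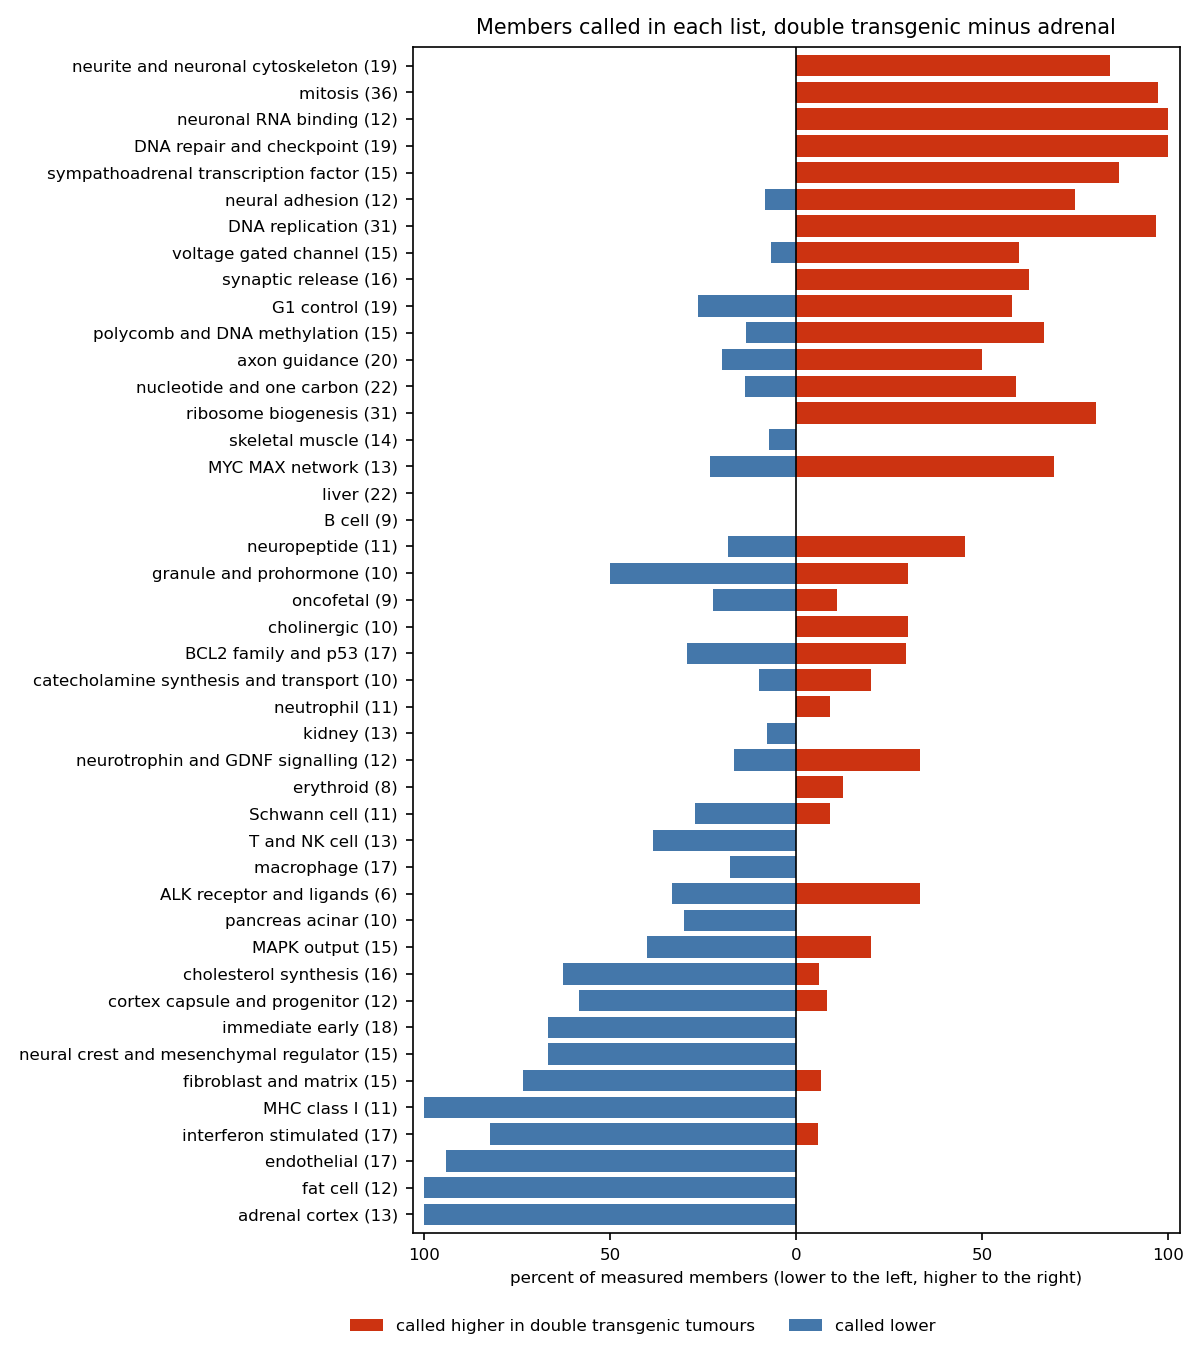
Percent of measured members called lower (blue, left) and higher (red, right) in double transgenic tumours for 44 gene lists, ordered by their median difference with the number measured in brackets. Over all genes 24.3% were higher and 24.2% lower; the mitosis, DNA repair and neuronal lists are far above that on the right, and the fat, cortex, endothelial and MHC class I lists on the left.

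Several of the largest rises lay outside these groups. Creb5, a CREB family transcription factor gene, read 11.02, 11.16 and 10.66 in the double transgenic arrays against 5.13, 5.28 and 4.37 in the adrenal arrays, a rise of 6.02 ± 0.36 (adjusted p = 4.18e-07). The homeobox gene Shox2 rose by 5.81 ± 0.51 and the POU factor gene Pou3f3, of developing brain and kidney, by 5.85 ± 0.96. Col9a1, a collagen chain gene known from cartilage, read 10.36, 9.12 and 9.04 in the double transgenic arrays against 3.43, 3.71 and 4.03 in the adrenal arrays, a rise of 5.78 ± 0.44 (adjusted p = 1.46e-06). Slc38a4, an amino acid transporter gene, rose by 5.7 ± 0.60 (adjusted p = 1.27e-05). As means of their probe sets, Creb5 rose by 3.555, Shox2 by 5.31, Pou3f3 by 3.19, Col9a1 by 3.5 and Slc38a4 by 4.66. For each of the 5 all tumours lay above all adrenals, and the calls held without double transgenic 1 and adrenal 2, as the naming rule required.

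The double transgenic tumours were then set against the single-driver tumours, in contrasts whose differences do not use the adrenal arrays. Their SE and adjusted p do, because the spread was estimated over all 13 arrays. Here too, batch and group cannot be told apart. Counts are also given without the 5 arrays high in liver genes (mutALK 1 and 3, MYCN 2, double transgenic 1 and adrenal 2), which leaves 1 mutALK array, assumed to vary like the other groups. Over all genes, 6.16% were higher and 6.66% lower than in MYCN tumours, and 8.39% were higher and 6.03% lower than in mutALK tumours. Without the 5 arrays these shares were 5.18% and 5.72%, and 5.28% and 4.62%. Against MYCN tumours, ribosome biogenesis genes gave 16 lower and 0 higher of 31 (median -0.64), and against mutALK tumours 13 higher and 0 lower (median 0.46). Without the 5 arrays these counts were 12 lower and 8 higher. Nop2, for one, differed by -0.60 ± 0.15 (adjusted p = 0.0225) from MYCN tumours and by 0.64 ± 0.16 (adjusted p = 0.0229) from mutALK tumours, and neither was called without the 5 arrays (-0.54, adjusted p = 0.0949, and 0.72, adjusted p = 0.0985). Mitosis genes gave 3 lower of 36 against MYCN tumours (median -0.36) and 25 higher against mutALK tumours (median 1.15). Melk was 1.74 ± 0.33 higher than in mutALK tumours (adjusted p = 0.00728) and differed by -0.21 ± 0.30 from MYCN tumours (adjusted p = 0.723). DNA repair genes were higher in 18 of 19 cases against mutALK tumours. Without the 5 arrays 24 mitosis and 17 DNA repair genes were higher than in mutALK tumours.

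Of 11 neuropeptide genes, 4 were higher and 0 lower than in MYCN tumours, and 0 higher and 1 lower than in mutALK tumours. Of 19 neurite genes, 5 were higher than in MYCN tumours and 0 lower, and 0 were called against mutALK tumours. In other neuronal lists, 4 of 15 voltage-gated channel genes, 2 of 16 synaptic release genes and 1 of 12 RNA-binding protein genes were higher than in MYCN tumours. Neural adhesion genes gave 1 higher and 1 lower of 12. Without the 5 arrays high in liver genes, 3 neuropeptide, 7 neurite, 2 RNA-binding protein, 5 voltage-gated channel, 5 synaptic release and 5 neural adhesion genes were higher than in MYCN tumours. Prph was 6.76 ± 1.31 higher than in MYCN tumours, where it averaged 4.1 ± 0.27 (adjusted p = 0.00799), and differed by -1.93 ± 1.4 from mutALK tumours (adjusted p = 0.417). Vip was 5.58 ± 1.17 higher than in MYCN tumours (adjusted p = 0.0111), Adcyap1 3.54 ± 0.81 (adjusted p = 0.0164, not called without the 5 arrays, 3.06, adjusted p = 0.126) and Cartpt 3.23 ± 0.41 (adjusted p = 0.00109). The differences of Cartpt from mutALK tumours, -1.37 ± 0.44 (adjusted p = 0.0582), and of Vip, -0.22 ± 1.25 (adjusted p = 0.939), were not called. Scg2 was intermediate: 9.58 ± 0.45 (SD, n = 3) in double transgenic tumours against 6.44 ± 0.74 in MYCN tumours and 11.87 ± 0.49 in mutALK tumours, with both differences called (adjusted p = 0.00198 and 0.012).

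MAPK-responsive genes gave 7 higher and 2 lower of 15 against MYCN tumours and 4 lower and 0 higher against mutALK tumours. Without the 5 arrays high in liver genes they gave 4 higher and 1 lower, and 2 lower and 0 higher. Etv5 was 4.08 ± 0.31 higher than in MYCN tumours (adjusted p = 9.49e-05) and 0.53 ± 0.33 from mutALK tumours (adjusted p = 0.339). Dusp6 differed by 0.56 ± 0.41 from MYCN tumours (adjusted p = 0.439) and by -2.24 ± 0.44 from mutALK tumours (adjusted p = 0.00895).

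**Figure D5:**
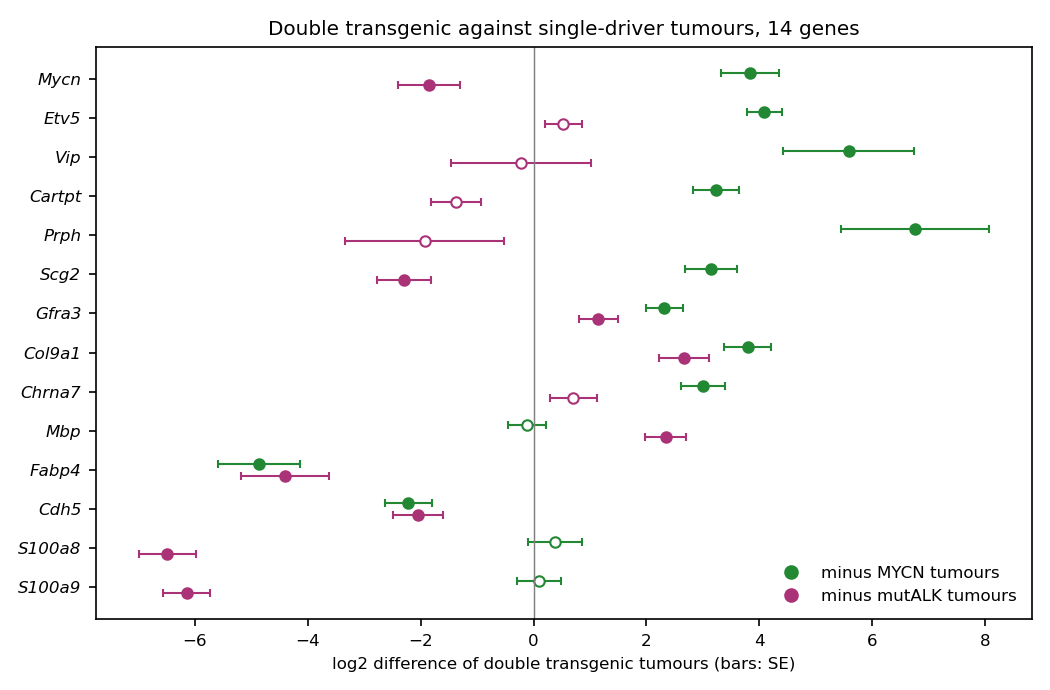
Log2 difference of double transgenic tumours from MYCN tumours (green) and mutALK tumours (purple) for 14 genes, with SE bars; filled points have adjusted p under 0.05. Col9a1 and Gfra3 lie above 0 and Fabp4 and Cdh5 below 0 in both contrasts, while Mycn and Scg2 lie on opposite sides.

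A smaller set differed from both single-driver groups in one direction. Col9a1 was higher than in MYCN tumours by 3.79 ± 0.41 (adjusted p = 0.00067) and than in mutALK tumours by 2.67 ± 0.44 (adjusted p = 0.00436), and Gfra3 by 2.32 ± 0.33 (adjusted p = 0.00182) and 1.15 ± 0.35 (adjusted p = 0.0488). The Gfra3 difference from mutALK tumours was not called without the 5 arrays high in liver genes (0.86, adjusted p = 0.312). Endothelial genes were lower in 11 of 17 cases against each of the single-driver groups, with 0 higher and medians of -1.27 and -1.27. Without the 5 arrays 8 were lower than in MYCN tumours and 7 lower than in mutALK tumours. Cdh5, VE-cadherin, averaged 5.17 ± 0.57 (SD, n = 3), against 7.38 ± 0.55 in MYCN tumours and 7.22 ± 0.80 in mutALK tumours. Fibroblast and matrix genes were lower in 8 of 15 against MYCN tumours and 9 of 15 against mutALK tumours, where 1 was higher, with Acta2, smooth muscle actin, at -3.38 ± 0.60 and -2.46 ± 0.64 and Pdgfrb, a pericyte receptor gene, at -2.2 ± 0.31 and -2.66 ± 0.33. Fabp4 differed by -4.86 ± 0.73 and -4.4 ± 0.78 on the same scale, the latter not called without the 5 arrays (-4.87, adjusted p = 0.074).

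Neutrophil genes, of which only Prtn3 was called against adrenal, were lower than in mutALK tumours for 9 of 11 members, and for 8 without the 5 arrays high in liver genes. S100a8, a calcium-binding alarmin gene of neutrophils, read 4.53, 4.28 and 6.04 in the double transgenic arrays, against 11.44 ± 0.62 (SD, n = 3) in mutALK tumours and 4.57 ± 0.72 (SD, n = 4) in MYCN tumours. The difference from mutALK tumours was -6.49 ± 0.51 (adjusted p = 0.000138), and from MYCN tumours 0.38 ± 0.47 (adjusted p = 0.673). Its partner gene S100a9 differed from mutALK tumours by -6.14 ± 0.42 (adjusted p = 0.000108).

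The 3 double transgenic tumours were not alike in all genes. The 8 genes with the largest distance of 1 array from the nearer of the other 2, chosen by that rule and given as a description, were Pzp, Mat1a, Rdh7, Bhmt, Vtn, Apob, Itih3 and Apof. All 8 are known liver genes outside the liver list and were high in double transgenic 1, as Apob shows at 10.79, 3.58 and 4.44 and Mat1a at 10.69, 3.38 and 3.64. Double transgenic 2 and 3 resembled each other more closely across genes (r = 0.986) than either did double transgenic 1 (0.964 and 0.961), while 274 genes were at least 2-fold higher and 290 at least 2-fold lower in array 2 than in array 3. These include, chosen after their values were seen, Hoxc8, a homeobox gene of trunk position, at 8.57, 9.12 and 3.81 in the double transgenic arrays, so array 3 alone was low. Col24a1 read 7.72, 8.38 and 4.57 in the double transgenic arrays and Dock10 9.02, 9.99 and 6.23 in the double transgenic arrays, again with array 3 low. Mef2c, at 5.11, 4.81 and 8.32 in the double transgenic arrays, and Islr2, at 7.78, 7.94 and 11.38 in the double transgenic arrays, were high in array 3 alone.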

How the data were processed

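Per the submitters' processing notes, the authors summarised the arrays with RMA in Partek, and the deposited values are on the log2 scale; versions, annotation and scan dates are not given in the sources used here. The 13 arrays had medians between 5.80 and 5.90, and their number limits precision. Of 45101 probe sets, 34958 carried exactly 1 symbol in the platform annotation, 932 several and 9211 none; 64 are controls. The brightest probe set per gene left 18194 genes, and brightness was taken over all arrays.

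The values were used without further normalization. limma 3.58.1 in R 4.3.3 (lmFit and eBayes, 9 residual and 2.28 prior degrees of freedom) fitted 4 group means; tests are two-sided. The 6 arrays of the comparison share 1 estimate of the spread with the other tumours. On simulated data with 200 of 18194 genes changed, 62% of changes of 1 log2 unit and 88% of 2 units were recovered. There were 6 false calls among the unchanged genes. The simulated noise was independent between genes, and far fewer genes changed than the 48.6% called here. These rates therefore need not hold for this comparison.

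Named were Mycn and Alk, the 12 largest called rises and falls of at least 2-fold with groups that did not overlap and that held without double transgenic 1 and adrenal 2 (leaving out predicted, immunoglobulin and sex-linked marker genes), up to 4 called members of each of 44 lists, and 8 genes for variation; other list members were named after their values were seen. Members, lists (669 of 735 symbols measured) and rules were chosen with earlier results of these data known, so lists have counts and medians but no test. Alternatives were quantile normalization, median centring, other probe set rules, a filter on the dimmest 40% of genes, trend and robust variance, array weights, the 6 arrays alone, a sex covariate, the mean of arrays with a common number in their titles, dropping arrays high in liver transcripts, and leaving out each array.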

Additional observations from a re-analysis of the deposited data

Results flagged for a closer look

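For 3 genes the double transgenic tumours and a single-driver tumour group were called in opposite directions against the same adrenal arrays. The difference between the tumour groups was called as well. That difference does not use the adrenal means, but its test uses a spread estimated with the adrenal arrays included. Mycn was higher than in MYCN tumours by 3.84 (adjusted p = 0.00141) on its brightest probe set. The Mycn probe sets disagree on the difference from adrenal, at 2.5, 0.83 and -0.22. Chrna7, a nicotinic receptor subunit gene, was higher than in MYCN tumours by 3.01 (adjusted p = 0.0013), with levels of 10.81, 10.85 and 10.04 in the double transgenic arrays and a mean of 7.56 ± 0.51 (SD, n = 4) in MYCN tumours. Mbp, myelin basic protein, was higher than in mutALK tumours by 2.34 (adjusted p = 0.00344), but its probe sets disagree on the difference from adrenal.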

How the results depend on the processing

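Under 18 alternatives the number of genes higher in double transgenic tumours ran from 3734 (the 6 arrays alone) to 5101 (array weights), and of genes lower from 3234 (without the dimmest 40% of genes) to 5030 (array weights), all within 1.5 times the reported counts. The filter on the dimmest 40% tested fewer genes, so its counts are not out of the same total. Leaving out each array in turn gave 3995 to 4418 higher and 3721 to 4388 lower. Each array centred on its median gave 4148 higher and 4688 lower, quantile normalization 4299 and 4619. Of 171 named genes, 148 kept their side of the threshold under all alternatives run. A change of direction was counted only where the gene was called in the main fit or the alternative. Uncalled genes could change sign, as Pzp did (0.48 with the 6 arrays alone, -2.08 without double transgenic 1). Of 163 calls, 12 were lost with sex as a covariate, 10 with the 6 arrays alone and 10 without double transgenic 1 and adrenal 2. Other calls in the text were lost too, those of Chga, Tlx2 and Bcl2 (adjusted p = 0.0613, 0.0774 and 0.0573) with the 6 arrays alone, that of Chl1 (adjusted p = 0.0683) without double transgenic 1 and adrenal 2, and that of Lin28b (adjusted p = 0.108) without the 5 arrays high in liver genes. Counts of lists against single-driver tumours without these 5 arrays were an alternative chosen after seeing the data. Among named genes called in either fit, the direction changed once, for Mbp as the mean of its probe sets (-0.812, adjusted p = 0.318). The cause was not tested. No paired analysis was possible because the labels give no replicate number shared between the groups. Genes near background have compressed differences on arrays, and low levels have no order.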

Other observations

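Lists of other organs were measured in the same arrays. Of 10 exocrine pancreas genes, 3 were lower in the double transgenic tumours and 0 higher, against 24.2% and 24.3% of all genes. Without double transgenic 1 and adrenal 2, 2 were lower and 1 higher, and the list median moved from -0.52 to -0.12. Cpb1, a carboxypeptidase gene, read 3.87, 3.73 and 4.01 in the double transgenic arrays against 7.67, 7.88 and 7.55 in the adrenal arrays. Its difference was -3.83 ± 0.14 (adjusted p = 3.62e-08), and Cela1, an elastase gene, differed by -2.6 ± 0.41 (adjusted p = 0.000239). All 3 adrenals were above all 3 tumours for both genes. Cpa1, the other of the 3 lower genes, differed by -0.84 ± 0.31 (adjusted p = 0.0435) and had no call without any 1 tumour. Of 14 skeletal muscle genes 1 was lower, Pygm, the muscle glycogen phosphorylase gene, at -2.67 ± 0.28 (adjusted p = 1.36e-05), although the list averaged 6.85, 4.67 and 5.07 in the double transgenic arrays, with array 1 high. Of 13 kidney genes 1 was lower, Kap (-0.78 ± 0.22), and the difference was -0.45 without adrenal 2.

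B cell genes, with 0 of 9 called, varied within the tumours: Ms4a1, which encodes CD20, read 4.55, 6.95 and 4.57 in the double transgenic arrays, so array 2 was high, against 4.67, 4.07 and 4.68 in the adrenal arrays. Cdkn2a, the locus of p16 and p19ARF, read 8.6, 8.13 and 5.36 in the double transgenic arrays, with array 3 low, against 6.13, 5.36 and 6.54 in the adrenal arrays, and its difference of 1.35 ± 0.82 was not called (adjusted p = 0.201), and was 2.35 (adjusted p = 0.0135) without array 3. Both genes were singled out after their values were seen.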
